A study of Mus musculus with 8 samples.

Results

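The genes described here are 10 members of the bone morphogenetic protein (BMP) pathway: the 5 ligand genes Bmp2, Bmp4, Bmp6, Bmp7 and Gdf5, the 2 receptor genes Bmpr1a and Bmpr1b, and the 3 antagonist genes Nog, Grem1 and Chrd. They were chosen by name, with earlier results of these data known, and matched to the gene symbols of the array annotation. All 10 were among the 22180 genes tested. The data are 8 microarrays of RNA from articular chondrocytes, the cells of joint cartilage, cultured as a monolayer from the knee surfaces of wild-type ICR mice aged 5 days. The Ad-Zip8 cells (4 arrays) had been infected for 24 h with a virus, an adenovirus, that expresses ZIP8, a transporter that brings zinc and other divalent metals into cells, and the Ad-null cells (4 arrays) for 24 h with a control adenovirus. Both groups therefore carried a virus. The labels call the 4 arrays of a group biological replicates without naming an animal or pool for any culture. The p-values therefore cover only the spread among these arrays, and the promoter driving the transgene is not stated in the labels.

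BMPs are secreted dimers that bind type I and type II receptor kinases on the cell surface, which phosphorylate the transcription factors SMAD1, SMAD5 and SMAD9. Secreted antagonists such as noggin, gremlin and chordin bind the ligands and keep them from the receptors. In cartilage this signal is known for driving condensation, chondrocyte differentiation and matrix production, and Gdf5 for marking the cells that form joints.

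All values are on the log2 scale after RMA, a method that corrects for background, brings all arrays to the same distribution and reduces the probes of a probe set to 1 value. Differences are Ad-Zip8 minus Ad-null with the standard error (SE) of a limma linear model, and a gene is said to rise or fall where its p-value, adjusted by the Benjamini-Hochberg method over all 22180 genes, was under 0.05. Slc39a8, which encodes ZIP8, had 11.16, 10.90, 11.24 and 11.20 on the Ad-Zip8 arrays, against 6.25, 6.27, 6.12 and 6.15 on the Ad-null arrays, a 30.4-fold difference (adjusted p = 3.49e-09). The chondrocyte label fits the markers: 11 of 11 had group means of 9.71 or more, against array medians of 5.04 to 5.11. Their mean was 11.40 to 11.68 on the Ad-Zip8 arrays and 12.10 to 12.17 on the Ad-null arrays, and 9 of the 11 fell. Of the markers of other cells, 1 of 5 osteoblast genes rose (Ibsp) and 1 fell (Sp7), 1 of 7 macrophage genes (Cd68) rose and 0 of 5 endothelial and 0 of 5 skeletal muscle genes were called. Among 7 fibroblast genes 2 rose (Pdgfra and S100a4) and 1 fell (Col1a2), with list means of 8.19 to 8.63 on the Ad-Zip8 arrays and 7.90 to 8.35 on the Ad-null arrays. In these bulk samples fewer cells of a type and less RNA per cell cannot be told apart, and the part of the marker shifts in the BMP results was not tested.

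Of the 10 BMP genes, 5 fell in the Ad-Zip8 cells (Bmp6, Bmp7, Nog, Grem1 and Chrd), 0 rose and 5 did not pass the test, whereas 5.12% of all genes tested fell and 5.48% rose. In either direction 10.6% of all genes were called. These shares include dim genes: 11090 of the 22180 genes had a mean below the median of all genes, but only 1 of the 10 members did. With those dim genes left out, 1297 of 11090 genes rose and 1625 fell, beside 1 member that rose and 5 that fell. The median log2 difference of the 10 was -0.34, against -0.02 over all genes. The falls lay in 2 of the 5 ligands and in all 3 antagonists, and neither receptor was called. The count of 5 falls was 4 with the replicate number fitted as a block and 3 to 4 without each array in turn. The count of 0 that rose is not firm: Gdf5 and Bmpr1b were higher in the Ad-Zip8 cells with adjusted p-values of 0.0522 and 0.0689, and 2 members rose when the replicate number was fitted as a block. At an unadjusted p under 0.05 both would count as higher, but many other genes pass that looser threshold too. By p-value Gdf5 and Bmpr1b ranked 2401 and 2685 of all 22180 genes. The shares of 5.48% and 10.6% given above are for adjusted p-values, and the share at an unadjusted p under 0.05 was not computed. The 2 groups did not overlap for 6 members, against 17.6% of all genes: Bmp6, Bmp7, Bmpr1a, Nog and Chrd lay lower with Ad-Zip8 (9.74% of all genes) and Gdf5 lay higher (7.89%).

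**Figure D1:**
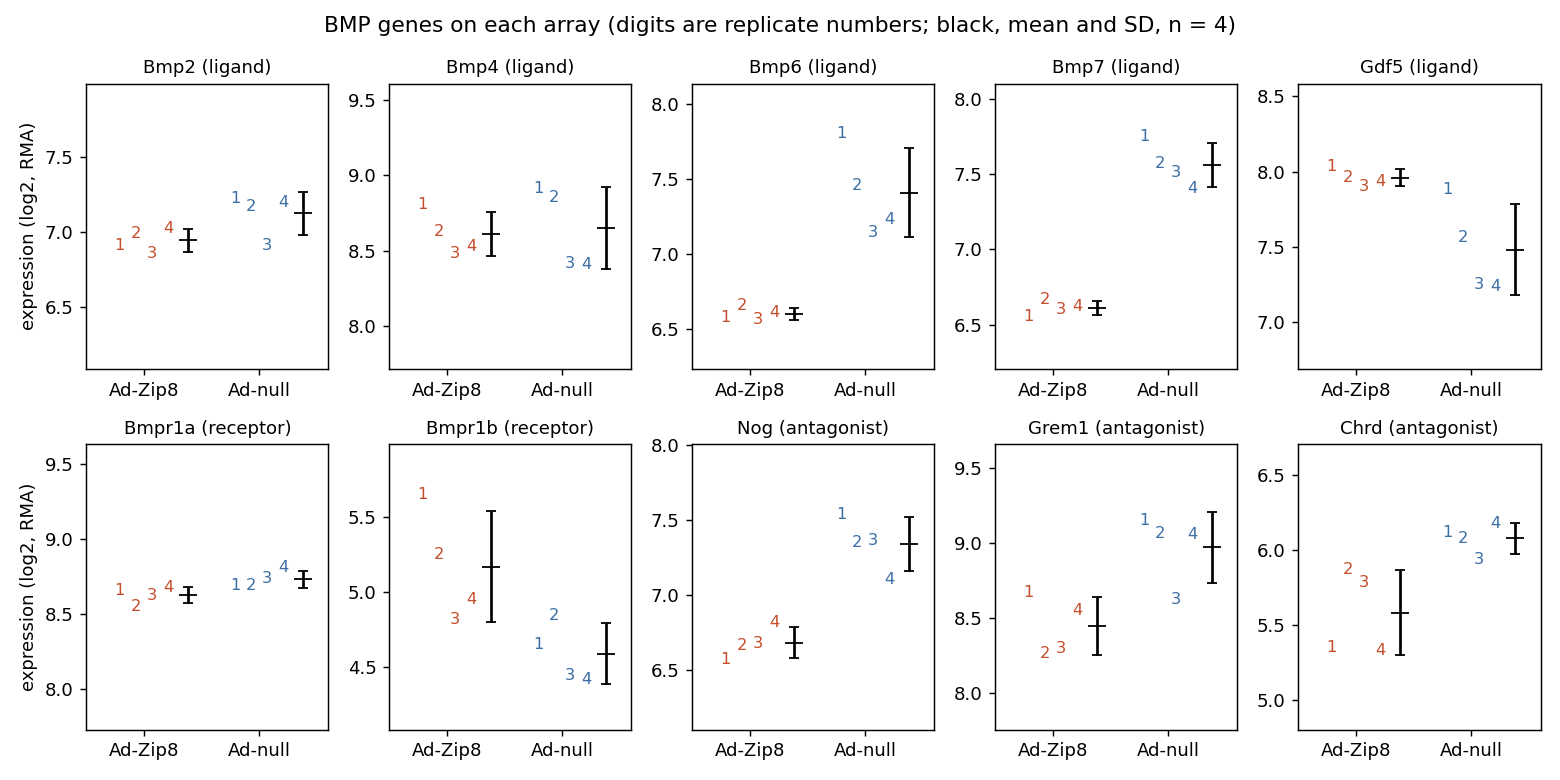
Expression of each BMP gene (y axis, log2 RMA value, each panel spanning the same range) on the Ad-Zip8 and Ad-null arrays, with digits for the replicate numbers and black bars for the mean and SD (n = 4 each). Bmp6 and Bmp7 lie between 6.55 and 6.67 on all 4 Ad-Zip8 arrays, below every Ad-null value, which start at 7.14.

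Bmp6 and Bmp7 encode close relatives of 1 ligand subgroup, and both fell. Bmp7 had 6.55, 6.67, 6.60 and 6.62 on the Ad-Zip8 arrays, against 7.75, 7.57, 7.51 and 7.40 on the Ad-null arrays. Every Ad-Zip8 value lay below every Ad-null value. The means were 6.61 ± 0.05 with Ad-Zip8 and 7.56 ± 0.15 with Ad-null (SD, n = 4 each), so Bmp7 was 1.93-fold lower (log2 difference -0.95, SE 0.08, adjusted p = 9.85e-05). It had the smallest p-value of the 10 members, rank 151 of all genes.

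Bmp6 had 6.58, 6.66, 6.57 and 6.61 on the Ad-Zip8 arrays, against 7.80, 7.46, 7.14 and 7.23 on the Ad-null arrays. The groups again did not overlap, and the Ad-null arrays were far more spread than the Ad-Zip8 arrays, with an SD of 0.04 for Ad-Zip8 and 0.30 for Ad-null (n = 4 each). Bmp6 was 1.75-fold lower (log2 difference -0.81, SE 0.13, adjusted p = 0.00325). Both genes stayed past the threshold in each of the 14 alternative fits, which comprised 6 other settings and 8 fits without 1 array.

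The mean of Gdf5, the gene of a ligand known for its part in joint formation, was higher with Ad-Zip8, without passing the test. It had 8.04, 7.96, 7.90 and 7.93 on the Ad-Zip8 arrays, against 7.88, 7.56, 7.25 and 7.24 on the Ad-null arrays. The lowest Ad-Zip8 value lay just above Ad-null replicate 1, which stood well above Ad-null replicates 3 and 4. The means were 7.96 ± 0.06 with Ad-Zip8 and 7.48 ± 0.31 with Ad-null (SD, n = 4 each), a log2 difference of 0.48 (SE 0.14, 95% interval 0.18 to 0.78) that did not pass (adjusted p = 0.0522). With the replicate block the adjusted p was 0.0373, and without Ad-null replicate 1 it was 0.00595 with a log2 difference of 0.61. A second probe set of Gdf5 had means of 4.54 with Ad-Zip8 and 4.52 with Ad-null, a log2 difference of 0.02. It did not show the difference. Both its means lay below the array medians of 5.04 to 5.11, where background can compress differences. Why the 2 probe sets disagree was not tested. The average of the 2 probe sets, which includes this dim one, had a log2 difference of 0.25 (limma adjusted p of 0.337).

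Bmp2 and Bmp4, which encode the other close pair of ligands, did not pass the test. Bmp2 ran from 6.86 to 7.02 on the Ad-Zip8 arrays and from 6.91 to 7.22 on the Ad-null arrays, a log2 difference of -0.18 (SE 0.09, 95% interval -0.37 to 0.02, adjusted p = 0.266). Its lowest Ad-null value, in replicate 3, fell inside the Ad-Zip8 range. Bmp4 ran from 8.48 to 8.80 on the Ad-Zip8 arrays and from 8.41 to 8.91 on the Ad-null arrays, with a log2 difference of -0.04 (SE 0.14, 95% interval -0.34 to 0.26, adjusted p = 0.908). The interval of Bmp4 thus leaves out a fall as large as that of Bmp6 or Bmp7. For Bmp4, replicates 1 and 2 were above replicates 3 and 4 in both groups.

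Whether the ligands changed unequally was examined in pairs. The 10 ligand pairs share 5 genes, so their tests are not independent of each other or of the calls above. Within each array the log2 difference between 2 ligands was taken and compared between groups with a two-sided exact permutation test, whose smallest possible p for 4 against 4 arrays is 0.0286. Bmp7 minus Gdf5 averaged -1.35 ± 0.09 with Ad-Zip8 and 0.08 ± 0.17 with Ad-null (SD, n = 4 each), a shift of -1.43 (exact p = 0.0286, 0.0444 adjusted over 14 pairs). Bmp6 minus Gdf5 averaged -1.36 ± 0.07 with Ad-Zip8 and -0.07 ± 0.04 with Ad-null (SD, n = 4 each), a shift of -1.28 (exact p = 0.0286). Its SD among Ad-null arrays is small beside the 0.30 of Bmp6 and the 0.31 of Gdf5 in the same arrays, so these genes were high and low together there.

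Bmp4 minus Bmp7 shifted by 0.91 and Bmp2 minus Bmp7 by 0.77, each at the smallest exact p. In all, 9 of 14 pairs of members with the same role passed after adjustment, 8 of the 10 ligand pairs among them. The share that would pass among pairs of other genes was not computed. Bmp6 minus Bmp7 (shift 0.15, exact p = 0.143) and Bmp2 minus Bmp4 (shift -0.14, exact p = 0.429) did not. These tests do not use the replicate numbers. The 9 passing pairs all sit at the lower limit of the exact test, and with the average of the Gdf5 probe sets 0 of 14 passed after adjustment (7 at the smallest exact p), so the adjusted calls are at the edge of what this design can show.

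**Figure D2:**
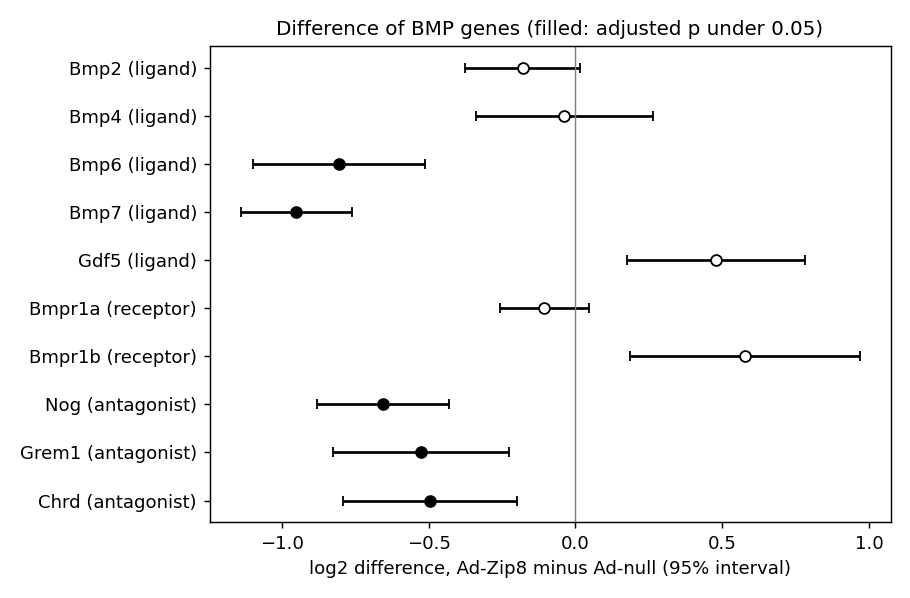
Log2 difference of each BMP gene, Ad-Zip8 minus Ad-null (x axis), with its 95% interval from limma, where filled points mark an adjusted p under 0.05. The 5 filled points all lie left of 0, from Bmp7 at -0.95 to Chrd at -0.50, and Gdf5 (0.48) and Bmpr1b (0.58) lie to the right without passing.

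The 2 receptor genes encode type I receptor kinases. Bmpr1a encodes a receptor used by BMP2 and BMP4, and ran from 8.55 to 8.67 on the Ad-Zip8 arrays and from 8.69 to 8.81 on the Ad-null arrays. The groups did not overlap, yet the log2 difference was -0.11 (SE 0.07, 95% interval -0.26 to 0.05) and did not pass (adjusted p = 0.412, against an exact permutation p of 0.0286 for this gene alone). Bmpr1b, which encodes the receptor that GDF5 prefers, had 5.65, 5.25, 4.82 and 4.96 on the Ad-Zip8 arrays, against 4.65, 4.85, 4.45 and 4.42 on the Ad-null arrays. Ad-Zip8 replicate 3 lay below Ad-null replicate 2, so the groups overlapped.

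The means of Bmpr1b were 5.17 ± 0.37 with Ad-Zip8 and 4.59 ± 0.20 with Ad-null (SD, n = 4 each), a log2 difference of 0.58 (SE 0.18, 95% interval 0.19 to 0.97, adjusted p = 0.0689). The adjusted p was 0.0275 with the replicate block and 0.0385 without Ad-Zip8 replicate 3. The Ad-null mean lay below the array medians of 5.04 to 5.11, where background can compress differences, so the size of this difference is uncertain. The part of background was not tested. Bmpr1a minus Bmpr1b within arrays averaged 3.45 ± 0.38 with Ad-Zip8 and 4.14 ± 0.25 with Ad-null (SD, n = 4 each), a shift of -0.68 (exact p = 0.0286).

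All 3 secreted antagonist genes fell. Nog, which encodes noggin, had 6.57, 6.67, 6.68 and 6.82 on the Ad-Zip8 arrays, against 7.54, 7.35, 7.36 and 7.11 on the Ad-null arrays. The groups did not overlap, and Nog was 1.58-fold lower (means 6.68 ± 0.10 with Ad-Zip8 and 7.34 ± 0.18 with Ad-null, SD, n = 4 each, log2 difference -0.66, SE 0.10, adjusted p = 0.00233). It passed in all 14 alternative fits, with an adjusted p of 0.0160 under the replicate block.

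Grem1 encodes gremlin 1, which binds BMP2, BMP4 and BMP7. It had 8.67, 8.27, 8.30 and 8.55 on the Ad-Zip8 arrays, against 9.15, 9.06, 8.62 and 9.06 on the Ad-null arrays. Ad-null replicate 3 stood below the other Ad-null arrays and just under Ad-Zip8 replicate 1, so the groups overlapped at that point. Grem1 was 1.44-fold lower (means 8.45 ± 0.19 with Ad-Zip8 and 8.97 ± 0.24 with Ad-null, SD, n = 4 each, log2 difference -0.53, SE 0.13, adjusted p = 0.0335). This call did not hold in the two-sided exact permutation test for this gene (exact p = 0.0571). With 4 against 4 arrays that test gives a p under 0.05 only where the groups do not overlap. Bmp6, Bmp7, Gdf5, Bmpr1a, Nog and Chrd, without overlap, each had an exact p of 0.0286. Over the 8 fits without 1 array the log2 difference of Grem1 ran from -0.64 to -0.47, and its call held in 2. The adjusted p was 0.0900, 0.0848 and 0.0545 without Ad-Zip8 replicate 2, 3 or 4 and 0.0933, 0.0848 and 0.0895 without Ad-null replicate 1, 2 or 4.

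Chrd encodes chordin, which holds BMPs until a tolloid protease cuts it. It had 5.35, 5.87, 5.78 and 5.33 on the Ad-Zip8 arrays, against 6.12, 6.08, 5.94 and 6.18 on the Ad-null arrays. Here the Ad-Zip8 arrays were the spread ones, with replicates 1 and 4 low, and the groups did not overlap. Chrd was 1.41-fold lower (means 5.58 ± 0.28 with Ad-Zip8 and 6.08 ± 0.10 with Ad-null, SD, n = 4 each, log2 difference -0.50, SE 0.13, adjusted p = 0.0406), but fitting the replicate block raised the adjusted p to 0.0776, above the threshold. Nor did it pass without Ad-Zip8 replicate 1 or 4 (0.110 and 0.0994) or without any Ad-null array (0.0979, 0.0852, 0.0532 and 0.106 for replicates 1 to 4). None of the 3 antagonist pairs differed in their change past the exact test (shifts of -0.16 to -0.03, exact p from 0.429 to 0.943).

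**Figure D3:**
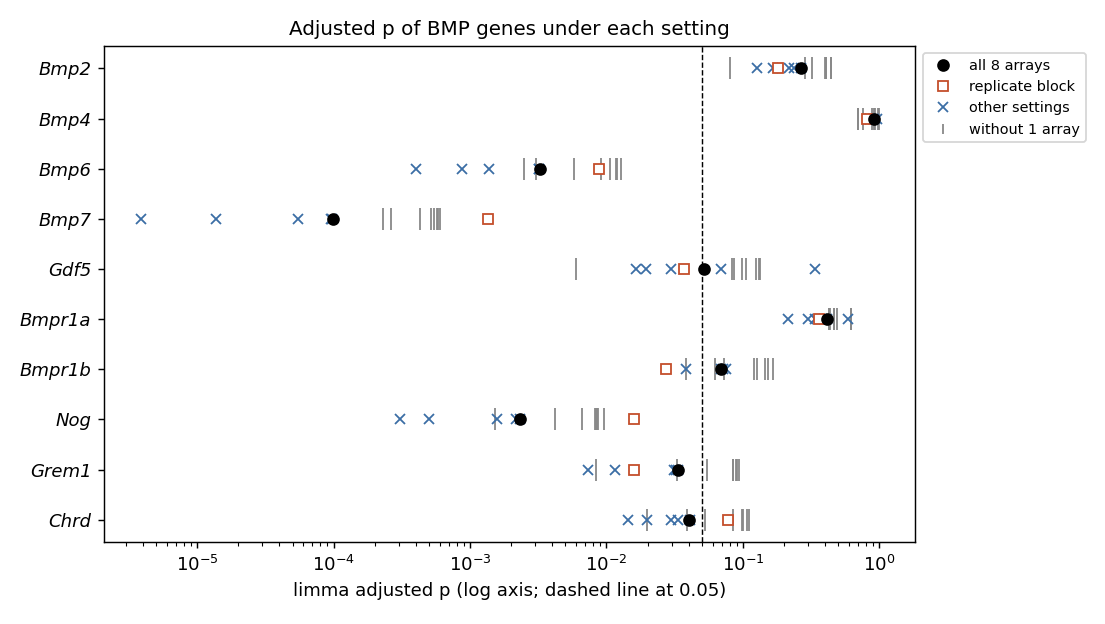
Limma adjusted p of each BMP gene (x axis, log scale, dashed line at 0.05) with all 8 arrays (filled circles), with the replicate block (squares), under the other settings (crosses) and without 1 array (ticks). Bmp6, Bmp7 and Nog stay left of the line throughout, whereas Gdf5, Bmpr1b, Grem1 and Chrd have points on both sides.

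Stretches before the start sites are shown for 2 members that fell, Bmp6 and Grem1, and for Bmp4, which did not pass. RefSeq promoter windows of assembly GRCm38.p6 were matched for 6 of the 10 members (8 windows). Bmp2, Bmp7, Gdf5 and Nog had no entry. In each 300-base window (250 bases before the start and 50 after), both strands were searched for GGCGCC, a core bound by SMAD1 and SMAD5, for TGCACNC and TGCGCNC, forms of the metal response element core, for the AP-1 motif TGACTCA and for the NF-kB motif. Capitals below mark matches in the 250 bases before the start, written 5′ to 3′ on the gene's strand.
Bmp6 (chr13:38345466-38345715, plus strand): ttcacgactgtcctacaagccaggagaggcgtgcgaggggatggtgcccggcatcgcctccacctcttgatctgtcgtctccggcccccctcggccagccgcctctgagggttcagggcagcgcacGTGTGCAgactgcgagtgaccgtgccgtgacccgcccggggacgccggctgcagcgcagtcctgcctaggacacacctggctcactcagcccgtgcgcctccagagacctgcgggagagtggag
Grem1 (chr2:113758649-113758898, minus strand): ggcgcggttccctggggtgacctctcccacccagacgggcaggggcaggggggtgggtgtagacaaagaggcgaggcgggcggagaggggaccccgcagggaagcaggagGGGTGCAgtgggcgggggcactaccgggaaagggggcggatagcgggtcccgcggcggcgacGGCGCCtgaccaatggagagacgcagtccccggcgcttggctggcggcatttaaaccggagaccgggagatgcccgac
Bmp4 (chr14:46390670-46390919, minus strand): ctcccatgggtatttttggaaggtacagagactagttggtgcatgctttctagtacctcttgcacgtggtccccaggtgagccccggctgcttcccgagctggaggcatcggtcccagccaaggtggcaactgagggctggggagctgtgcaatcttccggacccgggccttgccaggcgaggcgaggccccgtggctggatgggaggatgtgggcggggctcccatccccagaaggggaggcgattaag

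The Bmp6 window held 1 match, to TGCACNC on the opposite strand at -124 to -118 from the start. Grem1 held GGCGCC at -78 to -73, TGCACNC on the opposite strand at -140 to -134 and TGCGCNC just after the start, at 7 to 13. Bmp4 had 0 matches in its window, and so had the 3 windows of Bmpr1b. Among the windows not printed, that of Chrd, which fell, held GGCGCC at -203 to -198. Bmpr1a, which was not called, held GGCGCC at -198 to -193 and 3 matches to TGCGCNC, 2 of them overlapping on opposite strands, so matches were found in members that fell and in a member that did not pass. Over all 32851 windows of the table, GGCGCC was found in 11.9%, TGCACNC in 12.6%, TGCGCNC in 15.4%, TGACTCA in 5.2% and the NF-kB motif in 8.46%, so each of these matches is of a kind that many promoters hold.

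The wider pathway was followed in 57 further BMP genes, also listed with earlier results of these data known, of which 54 were analysed here. Among them 4 rose, 9 fell and 41 were not called. Their median log2 difference was -0.05. The share called was 24.1%, against 10.6% of all genes. Of the 54 genes, 14 had a mean below the median of all genes. With such dim genes left out, 4 pathway genes rose and 11 fell, beside 1297 and 1625 of 11090 genes. The part of expression level in these shares was not tested. Antagonist and target genes were called in both directions. Of the ligand genes 1 of 10 and of the mediator genes 2 of 10 were called, as lower. Of the receptor genes 1 of 7 was called, as higher. These shares of 10%, 20% and 14.3%, beside 10.6% of all genes, rest on too few genes to give a direction for a role.

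**Figure D4:**
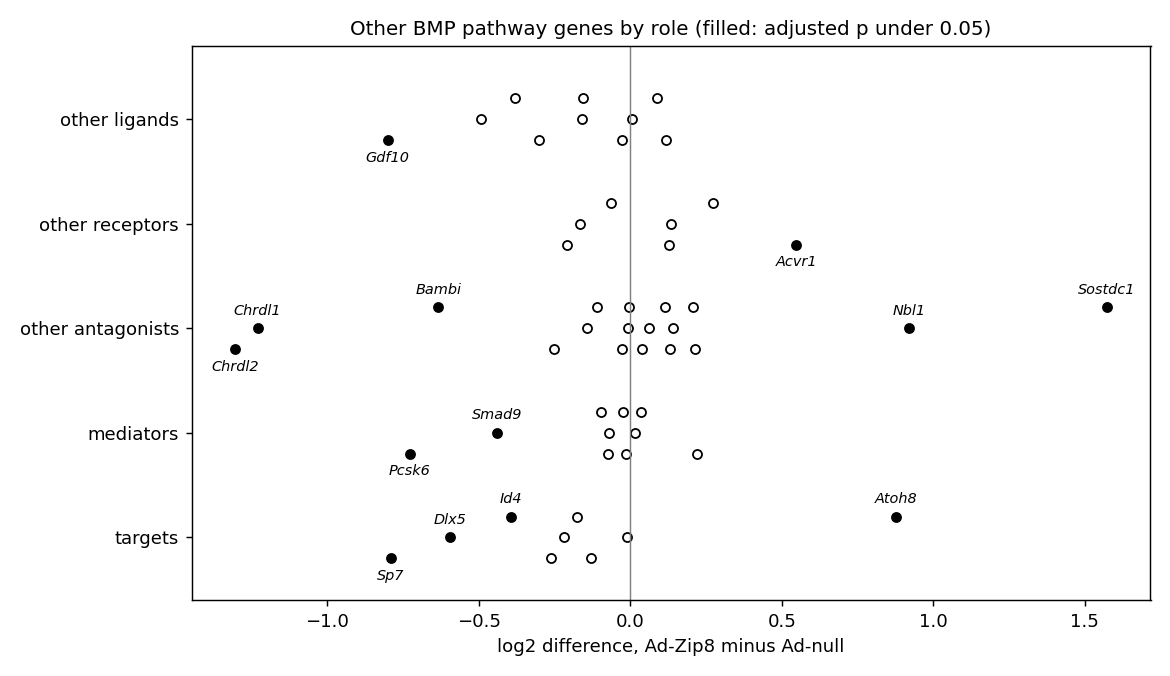
Log2 difference, Ad-Zip8 minus Ad-null (x axis), of 54 other BMP pathway genes by role, where filled and named points mark an adjusted p under 0.05. The antagonists spread widest, from Chrdl2 at -1.30 to Sostdc1 at 1.57.

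Of 10 other ligand genes 1 fell and 9 did not pass. Gdf10 was 1.74-fold lower (5.45, 5.28, 5.35 and 5.85 with Ad-Zip8, against 6.36, 6.11, 6.01 and 6.65 with Ad-null, adjusted p = 0.0109). Bmp5, of the same subgroup as Bmp6 and Bmp7, averaged 8.93 ± 0.12 with Ad-Zip8 and 9.31 ± 0.20 with Ad-null (SD, n = 4 each), a log2 difference of -0.38 (SE 0.11, adjusted p = 0.0603). Its limma adjusted p passed with the replicate block (0.0273), median centring (0.0426), dim genes left out (0.0213) and a variance trend (0.0158). It did not pass after repeated quantile normalization (0.0799) or with averaged probe sets (0.0606). Of the fits without 1 array, it passed only without Ad-null replicate 4 (0.0147).

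Of 7 other receptor genes 1 rose. Acvr1 encodes the type I receptor ALK2, through which BMP6 and BMP7 signal, and had 8.33, 8.04, 7.95 and 8.07 on the Ad-Zip8 arrays, against 7.50, 7.50, 7.60 and 7.61 on the Ad-null arrays. It was 1.46-fold higher with no overlap (log2 difference 0.55, SE 0.09, adjusted p = 0.00366). Acvrl1, a type I receptor gene of endothelium, had a log2 difference of 0.27 (SE 0.08, adjusted p = 0.0658). Bmpr2, the type II receptor gene, differed by -0.06 (adjusted p = 0.737).

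Among 18 other antagonist and inhibitor genes 2 rose, 3 fell and 13 did not pass. Sostdc1, which encodes a secreted antagonist of BMP and Wnt signals, had 7.82, 7.38, 7.50 and 7.82 on the Ad-Zip8 arrays, against 6.20, 5.92, 5.90 and 6.22 on the Ad-null arrays, and was 2.97-fold higher (log2 difference 1.57, SE 0.13, adjusted p = 5.25e-05). Nbl1, the gene of a DAN family antagonist, was 1.89-fold higher (log2 difference 0.92, SE 0.14, adjusted p = 0.00189). These rises stand beside the falls of the 3 member antagonists.

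The chordin-like genes fell with Chrd. Chrdl1 was 2.35-fold lower, at 6.55 ± 0.09 with Ad-Zip8 and 7.78 ± 0.22 with Ad-null (SD, n = 4 each, adjusted p = 9.85e-05). Chrdl2 was 2.47-fold lower, with 5.41, 5.35, 5.45 and 5.42 on the Ad-Zip8 arrays, against 7.09, 7.21, 6.29 and 6.26 on the Ad-null arrays (adjusted p = 0.00288). The Ad-null values of Chrdl2 lay in a high and a low pair, all above the Ad-Zip8 values. Bambi, which encodes a decoy receptor, was the fifth called gene of this role and is named after its value was seen (log2 difference -0.63, SE 0.11, adjusted p = 0.00412).

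Of 10 mediator genes 2 fell and 8 did not pass. Pcsk6, the gene of a proprotein convertase that can cut BMP precursors, was 1.66-fold lower (8.48 ± 0.08 with Ad-Zip8 and 9.20 ± 0.13 with Ad-null, SD, n = 4 each, adjusted p = 4.45e-04). Smad9 was 1.35-fold lower (log2 difference -0.44, SE 0.09, adjusted p = 0.0107). The other 2 receptor SMADs had small differences that did not pass, 0.02 for Smad1 (adjusted p = 0.922) and -0.01 for Smad5 (adjusted p = 0.953).

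Target genes of BMP signalling were mixed, with 1 of 9 higher, 3 lower and 5 not past the test. Atoh8, which encodes a transcription factor, was 1.84-fold higher (8.36 ± 0.10 with Ad-Zip8 and 7.49 ± 0.17 with Ad-null, SD, n = 4 each, adjusted p = 3.60e-04). Sp7, the gene of the osteoblast factor osterix, was 1.73-fold lower (log2 difference -0.79, SE 0.13, adjusted p = 0.00303). Dlx5, a skeletal homeobox gene, was 1.51-fold lower (adjusted p = 0.0256), and Id4 1.31-fold lower (adjusted p = 0.0183).

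The calls of Dlx5 and Id4 held in 4 and 5 of the 8 fits without 1 array. Over these fits the log2 differences ran from -0.70 to -0.49 for Dlx5 and from -0.46 to -0.35 for Id4. Dlx5 had adjusted p-values of 0.0656, 0.0634, 0.0607 and 0.0718 without Ad-Zip8 replicate 1 or 2 or Ad-null replicate 1 or 4, and Id4 of 0.0549, 0.0515 and 0.0561 without Ad-Zip8 replicate 4 or Ad-null replicate 1 or 4. The classic direct targets Id1 (-0.13), Id2 (-0.26) and Id3 (-0.01) had log2 differences that did not pass (adjusted p of 0.606, 0.239 and 0.954), and so did Smad6, an inhibitory SMAD gene that BMP signals induce (log2 difference -0.004, adjusted p = 0.983).

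The profile of Bmp7 over the 8 arrays was most like those of Cpxm1, Scamp5 and Glp1r, among named genes each set to its own mean. Their root mean square distances from Bmp7 were 0.07, 0.08 and 0.09 on the log2 scale. Cpxm1, for instance, averaged 7.11 ± 0.04 with Ad-Zip8 and 8.05 ± 0.14 with Ad-null (SD, n = 4 each). These likenesses rest mostly on the difference between the groups and are given without a test.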

How the data were processed

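The authors deposited 1 log2 value per probe set and array, which the submitters' processing notes credit to RMA. No label states its version or the array's genome build. No detection calls were used. The platform annotation gave 1 symbol to 23521 of 41345 probe sets, several to 1814 and did not list 16010. Entrez identifiers were checked against a mouse table (GRCm38.p6), which held 23328 and changed 0 symbols. For genes with several probe sets that of the highest mean was kept. The number of arrays limits the precision.

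Groups were compared with limma's lmFit and eBayes (version 3.58.1, R 4.3.3, two-sided, no covariates, no filter, Benjamini-Hochberg over 22180 genes). The fit was tested on simulated data: of 100 genes changed by 0.5 on the log2 scale 50 were recovered, and of 100 changed by 1, 87. False calls numbered 4 for either size. Same-numbered arrays of the 2 groups deviated from their group means together (r from 0.11 to 0.37, other numbers -0.27 to 0.16), a pairing that the labels do not state. The main limma fit and the exact tests of members and pairs are nevertheless unpaired, as planned. The paired fit, with the replicate block, is an alternative and is given where it changes a call.

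Alternatives were median centring, repeated quantile normalization, leaving out dim genes, a variance trend, the replicate block, averaged probe sets, an exact permutation test and leaving out each array. Named genes were the 10 members, Slc39a8, up to 4 called genes per role of the other pathway genes (the 2 with the smallest p where fewer than 2 were called) and the 3 profiles closest to the member with the smallest p. The members and lists were chosen with earlier results of these data known. Promoter sequences are from RefSeq. Blood cell markers were not analysed here.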

Additional observations from a re-analysis of the deposited data

Results flagged for a closer look

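Bmp2 had an Ad-null array far from the others: replicate 3 stood at 6.91, against 7.22, 7.17 and 7.20 on replicates 1, 2 and 4, and the gap filled 0.832 of the group's range. Without that array the log2 difference of Bmp2 was -0.25 (limma adjusted p = 0.0808). Chrdl1 had Ad-null replicate 1 at 8.10, against 7.64, 7.70 and 7.67 on the other Ad-null arrays, a gap of 0.859 of the range. Chance would place about 1 in 20 groups this far apart, and 50 gene and group sets were examined, and 2 of them stood out.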

How the results depend on the processing

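Bmp6, Bmp7, Nog, Acvr1, Sostdc1, Chrdl1, Nbl1, Chrdl2, Pcsk6, Smad9, Atoh8, Sp7, Gdf10 and Slc39a8 kept their direction and their call in every alternative limma fit that held them. The count of members that rose, 0 with all arrays, was 1 after repeated quantile normalization, 1 after dim genes were left out (Bmpr1b was among those), 2 with the variance trend and 2 with the replicate block (Gdf5 and Bmpr1b), and 0 to 1 without each array in turn. The count of members that fell, 5, was 4 with the replicate block and 3 to 4 without each array in turn. Bmp4, near 0 throughout, ran from -0.12 to 0.050 on the log2 scale without each array, with positive values without Ad-Zip8 replicate 3 (0.0056) or Ad-null replicate 1 (0.050) or 2 (0.031). Other pathway genes that rose numbered 4 in each limma fit, and those that fell 7 to 12. Of all genes, 1136 fell, and 708 to 923 without each array. Averaged probe sets left 0 of 14 pairs past the adjusted exact test, against 9. Only pairs with Gdf5 changed in value. The other pairs kept their shifts and exact p, but fewer pairs (7) stood at the smallest exact p, which raised the adjusted p of all of these. The replicate block changed the calls of Gdf5, Bmpr1b, Chrd and Bmp5, given above, and of no other named gene. Where the call of a gene changed, the cause was not tested. The Ad-null mean of Bmpr1b lay below the array medians, so the size of its difference is uncertain. The part of background in it was not tested.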
